A study of Homo sapiens with 4 samples.

Results

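Ribosome biogenesis genes encode the proteins that transcribe, cut, modify and fold ribosomal RNA in the nucleolus and assemble it into the small and large ribosomal subunits. The set described here has 35 genes, listed by name with earlier results of these data known. They are factors of ribosome assembly and of RNA polymerase I transcription, with MYC, a transcription factor known to drive many of them. All 35 were among the 19965 mRNA genes with an NCBI gene ID that the deposited gene list names. A row in the deposited gene comparison, which holds 684 genes, was found for 11 of the 35, and 24 had none.

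The cells were LP-1, an established human multiple myeloma line, grown with fetal bovine serum and given a lentiviral guide RNA construct. Control cells carried a non-target construct (2 libraries) and knockdown cells one against HRP2 (2 libraries), the chromatin reader encoded by HDGFL2. No other genetic change or drug is named for either group, and both groups went through lentiviral transduction. The labels do not say whether the guide edited or repressed its target. They do not name separate cultures for the pair of libraries in each group either, and the authors' Q values may then reflect technical spread only.

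Every value of expression below is the authors' own, namely a log2 ratio of knockdown to control (the log2 fold change) with its Q value, from a table that lists only genes with a Q under 0.05. Values per library, their spread and the sequencing depth are not known from what was used here, so no fold change carries an SD and no gene can be shown sample by sample. A gene with no row has no value, which does not show that it was unchanged. In bulk RNA, a change in RNA per cell and a change in the share of cells that make it cannot be told apart. HDGFL2 was at 0.388 times the control level in the authors' deposited table (log2 fold change -1.37, Q = 2.99e-13). Of 10 plasma cell markers, SDC1, TNFRSF17 and IRF4 had a row, all 3 lower. Their log2 fold changes in the authors' deposited table were -0.45, -0.48 and -0.63 (Q = 0.0446, 0.0392 and 0.00323). None of 14 markers of T, NK, myeloid or earlier B cells had a row. Of listed mRNA genes, 1.61% had a row as lower and 3.42% in either direction, and 0 of 14 is near the latter share. Levels of these markers were not available to check the labelled cell type itself.

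Ribosome production begins when RNA polymerase I transcribes the long precursor of the 18S and of most of the large subunit ribosomal RNA. Small nucleolar RNPs (snoRNPs) of the box C/D and box H/ACA kinds then guide its methylation and pseudouridylation. The small subunit processome, built around the U3 snoRNP, shapes the 18S part, and a separate series of pre-60S particles matures the large subunit. In myeloma and other fast-growing cells this program is known as a major target of MYC, which binds with MAX to the E-box CACGTG.

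The promoters of 5 members with a row are printed because 4 of them show where that E-box lies near the start of transcription and the fifth, of one of the 2 members with the largest changes, lacks it. They are RefSeq promoters of build GRCh38.p14, from 250 bases before the start to the first 10 bases of the transcript. LYAR lies at chr4:4290012-4290271 (minus strand), RRP9 at chr3:51941895-51942154 (minus strand), UTP4 at chr16:69132399-69132658 (plus strand), WDR43 at chr2:28894417-28894676 (plus strand) and NOP16 at chr5:176388589-176388848 (minus strand). Capitals mark the E-box.
LYAR: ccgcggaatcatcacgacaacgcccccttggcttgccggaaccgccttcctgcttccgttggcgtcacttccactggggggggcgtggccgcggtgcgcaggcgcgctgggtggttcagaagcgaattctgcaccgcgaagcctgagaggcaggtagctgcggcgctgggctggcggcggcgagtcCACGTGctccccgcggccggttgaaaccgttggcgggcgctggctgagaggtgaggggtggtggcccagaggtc
RRP9: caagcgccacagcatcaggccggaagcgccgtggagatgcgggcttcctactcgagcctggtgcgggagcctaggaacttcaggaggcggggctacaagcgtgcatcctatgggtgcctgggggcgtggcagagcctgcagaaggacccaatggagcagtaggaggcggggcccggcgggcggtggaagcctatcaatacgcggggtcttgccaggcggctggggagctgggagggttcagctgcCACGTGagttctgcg
UTP4: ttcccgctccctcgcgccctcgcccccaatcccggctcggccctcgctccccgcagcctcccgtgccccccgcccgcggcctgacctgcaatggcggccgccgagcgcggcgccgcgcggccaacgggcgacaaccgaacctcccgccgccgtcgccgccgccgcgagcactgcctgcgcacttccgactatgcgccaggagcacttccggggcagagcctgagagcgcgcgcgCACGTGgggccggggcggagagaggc
WDR43: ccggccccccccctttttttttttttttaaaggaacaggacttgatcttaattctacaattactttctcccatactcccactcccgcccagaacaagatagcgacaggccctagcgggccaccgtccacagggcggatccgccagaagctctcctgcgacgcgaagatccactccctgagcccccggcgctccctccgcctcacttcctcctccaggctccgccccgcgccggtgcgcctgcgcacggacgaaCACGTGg
NOP16: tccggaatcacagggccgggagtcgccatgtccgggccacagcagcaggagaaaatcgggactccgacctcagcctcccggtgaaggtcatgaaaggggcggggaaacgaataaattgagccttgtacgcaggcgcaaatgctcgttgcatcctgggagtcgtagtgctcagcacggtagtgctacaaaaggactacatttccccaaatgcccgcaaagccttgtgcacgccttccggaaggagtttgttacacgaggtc

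The E-box begins 64 bases before the start in LYAR, 16 before it in UTP4 and 5 before it in RRP9, and at base 4 of the transcript in WDR43. LYAR has 2 promoters in the RefSeq table, and the one not printed lacks the motif. No match in NOP16 says only that these letters are not in this window.

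All 11 ribosome biogenesis genes with a row were higher in the HRP2 knockdown. Their log2 fold changes in the authors' deposited table ran from 0.52 to 1.21 with a median of 0.72, that is, from 1.43 to 2.32 times the control level. Of the listed mRNA genes, 1.81% were in the table as higher and 1.61% as lower, against 31.4% and none of the 35 members. Since the members were listed with earlier results of these data known, that share is a description and not independent evidence. The listed mRNA genes also include genes that LP-1 cells may not express, which lowers the share of listed genes with a row, and how far this sets the members apart was not tested. Among all 684 genes, 52.8% were higher, and the median was 0.47 over all of them and 0.66 over the 361 higher genes. The smallest value of the higher genes was 0.40, and the median of the lower genes was -0.78. A median over both directions thus depends largely on the share of higher genes, and 0.66 is the closer value to set beside 0.72.

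**Figure D1:**
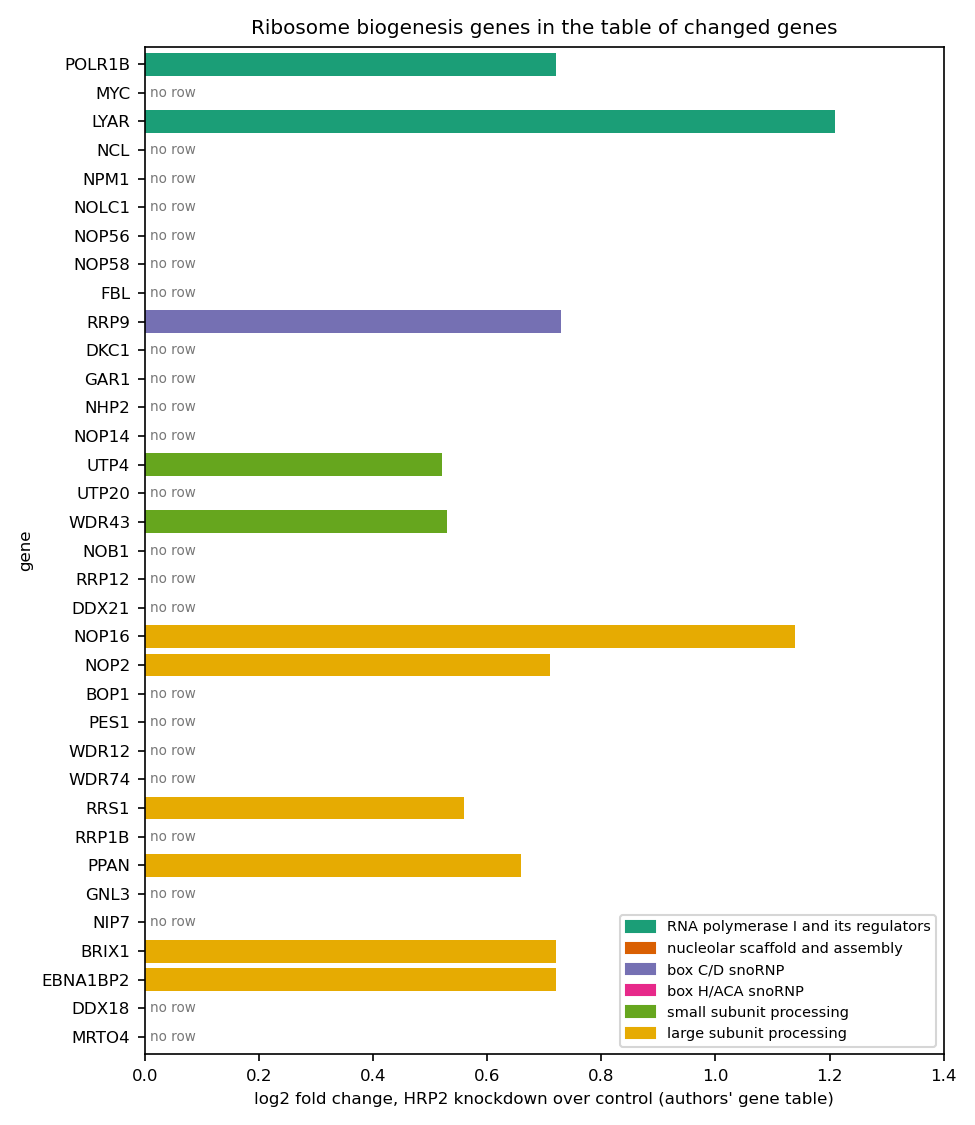
Bars give the authors' log2 fold change, knockdown over control, for each of the 35 ribosome biogenesis genes, coloured by role; "no row" marks a gene outside the authors' table, for which no value exists. The 11 bars all point to higher expression, and LYAR (1.21) and NOP16 (1.14) stand above the rest, which lie between 0.52 and 0.73.

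LYAR and NOP16 had the largest changes among the members. LYAR, a nucleolar zinc finger protein that promotes ribosomal RNA synthesis, was at 2.32 times the control level in the authors' deposited table (log2 fold change 1.21, Q = 6.07e-05). It ranked 24 among the 361 higher genes. NOP16, a factor of the pre-60S particle, was at 2.2 times the control level in the same deposited table (log2 fold change 1.14, Q = 0.000206) and ranked 37. They were the only 2 members above the upper quartile of the higher genes (0.81), while 8 of the 11 lay above the median of the higher genes.

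Transcription of ribosomal RNA was represented by 3 members. POLR1B, the second-largest subunit of RNA polymerase I, was at 1.65 times the control level in the authors' deposited table (log2 fold change 0.72, Q = 0.00833). LYAR is given above. MYC had no row in the gene table or in the transcript table, so its level in the knockdown is not known from these data.

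Of the box C/D snoRNP genes, RRP9, a protein specific to the U3 particle that organises the small subunit processome, was higher at 0.73 (Q = 0.0359) in the authors' deposited table. NOP56, NOP58 and FBL, the structural proteins and the methyltransferase common to all box C/D particles, had no row. Neither did DKC1, GAR1 and NHP2, proteins of the box H/ACA particle with its pseudouridine synthase, nor NCL, NPM1 and NOLC1, abundant nucleolar proteins that act as chaperones and scaffolds. The U3-specific protein was thus the sole snoRNP or scaffold gene among these 10 with a value in the gene table.

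In the small subunit group 2 of 7 genes had a row, UTP4 and WDR43. Both encode subunits of UTP-A, the subcomplex that binds the precursor RNA first and is also needed for its transcription. In the authors' deposited table WDR43 was at 0.53 (log2 fold change, Q = 0.0236) and UTP4 at 0.52 (Q = 0.0495). UTP4 had the smallest change of the 11 members, and its Q value was the second largest of the whole table. NOP14, UTP20, NOB1 (the nuclease that makes the 3' end of 18S RNA), RRP12 and the helicase DDX21 had no row.

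The large subunit group held 6 of the 11, from 15 genes. NOP16 led it. BRIX1, a Brix-domain protein of early pre-60S particles, and EBNA1BP2, the human counterpart of yeast Ebp2, were both at 0.72 on the log2 scale in the authors' deposited table (Q = 0.0192 and 0.00871). NOP2, a methyltransferase of large subunit RNA, was at 0.71 (Q = 0.00811) and PPAN, another Brix-domain protein, at 0.66 (Q = 0.0226) in that deposited table. RRS1, which works with RPF2 to bring the 5S RNP into the pre-60S particle, was at 0.56 (Q = 0.0273) there. BOP1, PES1 and WDR12, which together form the PeBoW complex, had no row, and neither did WDR74, RRP1B, GNL3, NIP7, DDX18 and MRTO4.

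The values for NOP2 and PPAN carry a doubt about counting. Of the 31-base words in its longest GENCODE transcript, NOP2 shared 83.8% with a transcript of another gene, above all AC006064.6, and PPAN shared 87.2%, above all with the readthrough locus PPAN-P2RY11. Reads could be split between such loci, and how the authors treated them is not given in the sources used here. The other 9 members with a row shared at most 9.79% (RRS1), and their median was 0.72 as well. The 11 genes lie on 9 chromosomes.

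A wider list held 224 other genes of ribosome production, taken from general knowledge of the pathway but, like the members, with earlier results of these data known. A row was found for 24 of them (10.7%), 22 higher and 2 lower, against 3.42% of listed mRNA genes in either direction, and 200 had no row. Without the ribosomal proteins it was 24 of 145 (16.6%). For the 22 higher genes the median log2 fold change in the authors' deposited table was 0.66, as it was for all higher genes. Together with the members, 33 genes of ribosome production made up 9.14% of the higher genes, and 2 made up 0.619% of the lower ones.

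**Figure D2:**
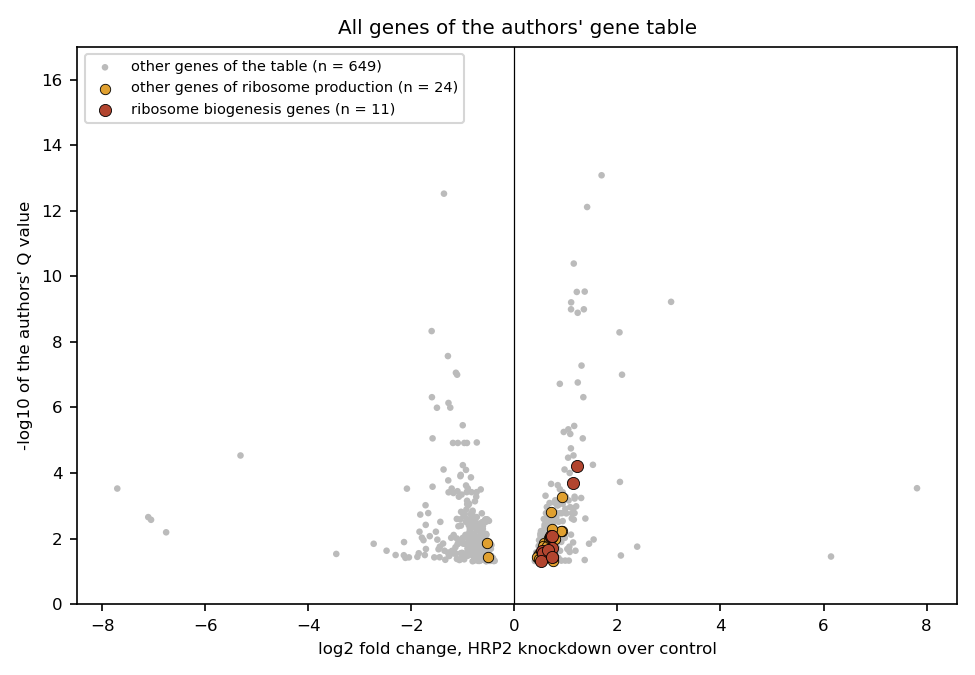
Each point is 1 of the 684 genes of the authors' table, by log2 fold change (knockdown over control) and by the negative log10 of the Q value; the 11 ribosome biogenesis genes and the 24 other genes of ribosome production are coloured. All 11 and 22 of the 24 lie right of 0, most of them in the dense group of modest changes, and 2 of the 24 lie left of it.

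Small subunit genes gave 10 of 51, all higher. ESF1, a nucleolar factor for 18S processing, had the largest change, 0.91 in the authors' deposited table (Q = 0.0057). HEATR1 was at 0.71 (Q = 0.00156), PNO1, a partner of NOB1, at 0.68, NOL6 at 0.67, NOL11 at 0.64 and WDR3 at 0.60 in the authors' deposited table. TSR1, a GTPase-like factor of late pre-40S particles, was at 0.57, WDR36 at 0.56, UTP11 at 0.55 and the GTPase BMS1 at 0.44 in the same deposited table. HEATR1 and NOL11 belong to UTP-A with the members UTP4 and WDR43, so that 4 of the 6 UTP-A genes were higher (0.52 to 0.71). WDR3 and WDR36 make 2 of the 6 genes of UTP-B. Of listed mRNA genes, 1.81% had a row as higher. Other groups counted in this way had 2 of 5 genes with a row (Brix domain), 0 of 3 (PeBoW), 0 of 4 (box C/D core) and 0 of 4 (box H/ACA core). All of these groups were made after the values were seen.

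Large subunit genes gave 10 of 54, of which 8 were higher. DDX10, a helicase, was at 0.93 (Q = 0.000532), PAK1IP1 at 0.78, CCDC86 at 0.73 (Q = 0.00521) and MAK16 at 0.64 in the authors' deposited table. The place of DDX10 in this list rather than the small subunit list is open to doubt, and the counts of both lists depend on it. The helicase DDX55 and NOC3L were each at 0.56, and the methyltransferase FTSJ3 and URB1 each at 0.47 in the same deposited table. The 2 lower genes were NOP53, a late pre-60S factor that docks the RNA exosome, at -0.54 (Q = 0.0133), and WDR18, a subunit of the complex of PELP1 and TEX10, at -0.51 (Q = 0.0358) in the authors' deposited table. PELP1, TEX10, LAS1L, NOL9 and SENP3, which work with WDR18, had no row in the gene table.

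The remaining lists had few rows. Of 14 genes of the RNA polymerase I machinery only POLR1G, listed under its older name CD3EAP, was in the table, at 0.75 (Q = 0.0471, authors' deposited table). Of 12 snoRNP assembly genes it was RUVBL1, an ATPase of the R2TP complex, at 0.67 (Q = 0.00956). Among 14 genes of the RNA exosome and its cofactors, MPHOSPH6 was at 0.92 (Q = 0.00589) and EXOSC7 at 0.74 (Q = 0.0362) in the authors' deposited table. None of the 79 cytosolic ribosomal protein genes had a row. Of all listed mRNA genes 3.42% had a row, a share at which lists of these sizes would hold few rows. The lack of a row does not show that the ribosomal protein genes were unchanged.

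**Figure D3:**
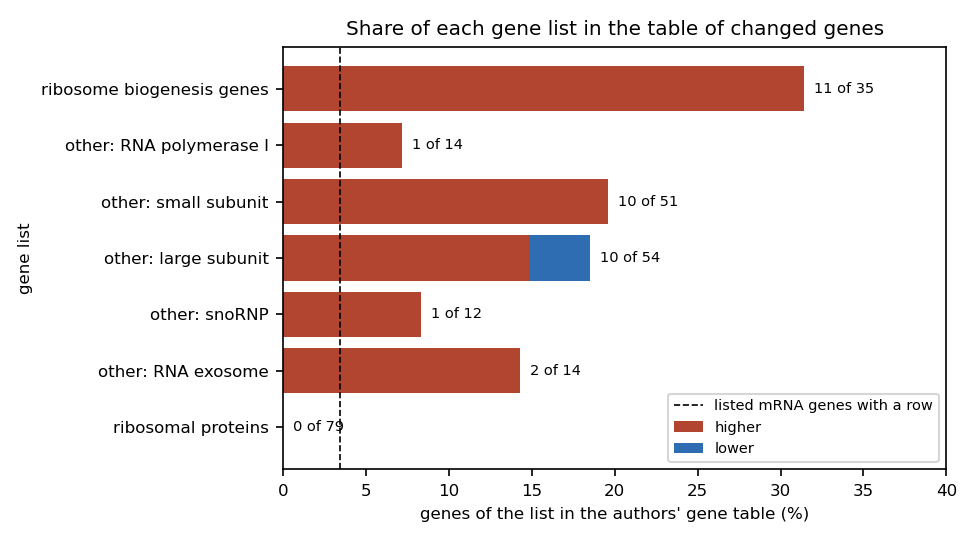
Bars give the percentage of each gene list found in the authors' table, higher or lower in the knockdown, with the number of genes beside each bar; the dashed line marks the 3.42% of listed mRNA genes with a row. The ribosome biogenesis genes reach 31.4%, the small and large subunit lists 19.6% and 18.5%, and the ribosomal proteins 0 of 79.

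At the transcript level the members had few rows. The authors' deposited transcript table held 1040 transcripts, of which 3 came from members, all higher, and these belonged to UTP4 and NPM1. A called transcript was found for 2 of 35 members (5.71%), against 4.41% of listed mRNA genes (2.51% with a higher transcript), a share near the background. Of the 684 genes with a row, 17.1% also had a called transcript. Among the 11 members with a row UTP4 was the only 1, a count too small to set them apart from that share. The UTP4 transcript NM_032830.2 was at 0.79 on the log2 scale in the authors' deposited table (Q = 0.0471), close to the Q threshold, like the gene itself.

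A further UTP4 transcript, XM_005256205.3, was listed at 22.64 (Q = 1.27e-06) in the authors' deposited table. That is 1 of 77 transcripts at 20 or more in absolute value, and a ratio of that size cannot be read as an amount of change. Of the 1040 transcripts only 217 were under 6 in absolute value, so most rows behind the transcript shares above carry very large ratios. NPM1, the nucleolar chaperone nucleophosmin, was not in the gene table, but its transcript NM_001355006.1 was higher at 0.80 (Q = 4.77e-05, authors' deposited table). NPM1 shared 52.8% of its sequence words with other loci, above all the pseudogene NPM1P27. From the wider list 7 transcripts of 6 genes had a row, 5 higher and 2 lower, and none of these 6 genes had a row in the gene table. Those at less than 6 in absolute value were a LAS1L transcript at 1.46 and a TCOF1 transcript at 3.51, while another of TCOF1 was listed at -23.18 (authors' deposited table).

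Direction in the whole gene table went with base composition, and the members and the wider list are given beside it. The median GC content of transcripts was 46.7% for all higher genes and 57.5% for all lower genes, and 48.9% for the 11 members with a row. For the higher genes of the wider list it was 42.6%. Genes of ribosome production with a row were higher in 16 of 16 cases in the quartile of lowest GC content and in 4 of 4 in the second, where 72.7% and 72.6% of the other genes were higher. In the third quartile it was 9 of 9, against 44.2%. In the quartile of highest GC content, 58.5% to 71.2%, it was 4 of 6, against 12.9% of the other 163 genes. Those 6 were RRP9, PPAN, POLR1G and CCDC86, which were higher, and NOP53 (61.3%) and WDR18 (65.3%), which were lower. Only 3, 3, 3 and 2 of the genes counted, from the lowest to the highest quartile, were members. The rest came from the wider list. The median transcript length was 1470 nucleotides for the members with a row and 1850 for all higher genes. The part of base composition in the members' direction was not tested beyond these counts.

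**Figure D4:**
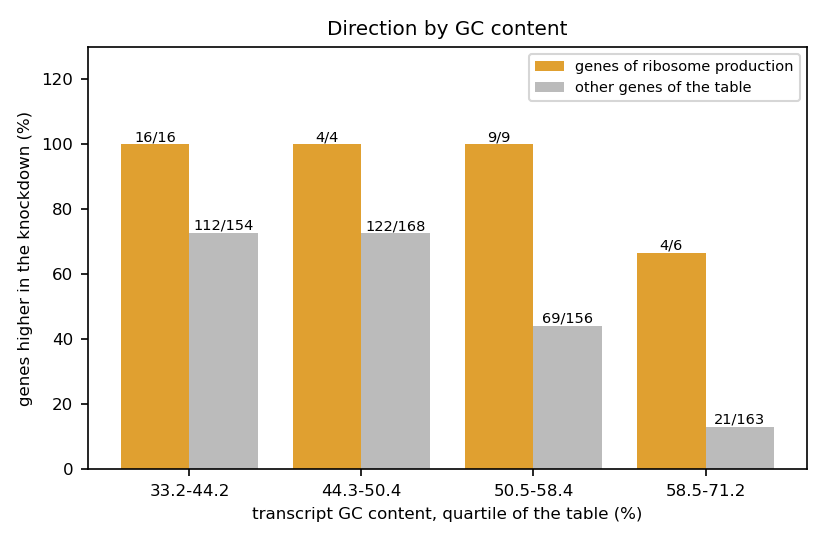
Bars give the percentage of genes higher in the knockdown within each quartile of transcript GC content. Quartiles are over the genes of the authors' table with a GC value. Shown are the 35 genes of ribosome production with a row and the other genes, with counts above the bars. Other genes fall from 72.7% to 12.9% higher across the quartiles, while those of ribosome production are all higher in the first 3 and 4 of 6 in the last.

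The E-box was present in some of the members' promoters and absent from others. The members were not chosen by promoter sequence, but they are a kind of gene known for control by MYC, so the motif is no independent feature of them. RefSeq promoters, from 250 bases before to 50 after the start, were at hand for 27 of the 35 members. The motif CACGTG, which reads the same on both strands, was found in 14 of these 27 (51.9%), against 10.9% of 15843 protein-coding genes, and 13 lacked it. In the 250 bases before the start alone the shares were 18.5% and 9.73%. It occurred in 6 of 10 members with a row (LYAR, RRP9, UTP4, WDR43, EBNA1BP2 and NOP2) and in 8 of 17 without one, that is, in 60.0% and 47.1%, a difference that was not tested. A window from 100 bases before to 50 after a start held a match in the same 14 of 27 members (51.9%), and in 6.7% of protein-coding genes. Within the first 50 bases of the transcript, 9 of the 27 members had it (33.3%, against 1.28%). Neither window was planned, and the first spans the match nearest a start in each of the 14. These shares are descriptions only.

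In the wider list the motif was found in 7 of 21 of its higher genes (33.3%) and in 27 of 104 of its genes without a row (26.0%), ribosomal proteins left out, and in 4 of 63 ribosomal protein genes (6.35%). Over the whole table it was found for 14.9% of higher and 9.77% of lower genes. EBNA1BP2 has a pair of starts in the RefSeq table, and a match was found in the promoter of each. A match is a description of the sequence, and no binding was measured here.

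**Figure D5:**
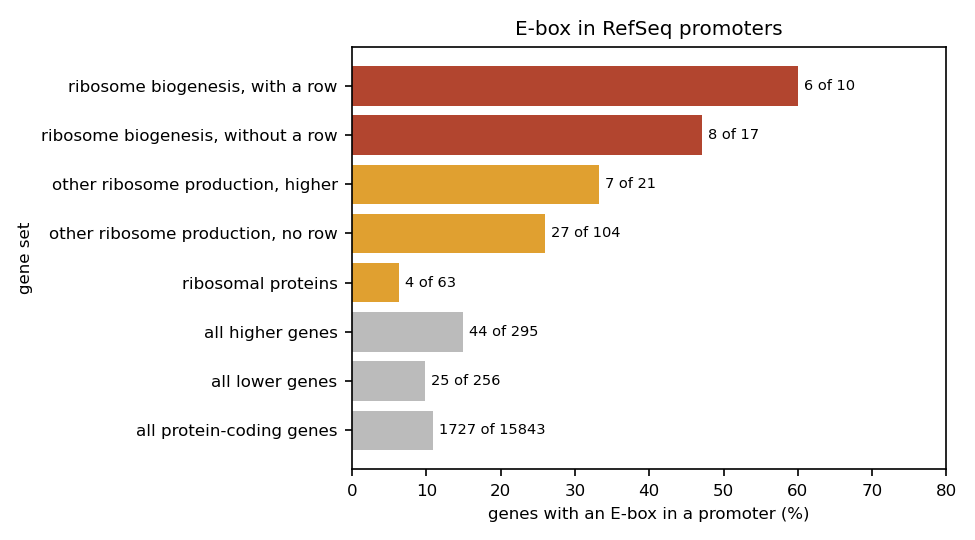
Bars give the percentage of genes with the E-box in at least 1 RefSeq promoter, with the number of genes beside each bar. Ribosome biogenesis genes with and without a row stand at 60.0% and 47.1%, and protein-coding genes as a whole at 10.9%.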

How the data were processed

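RNA of 4 LP-1 libraries, 2 per group, was extracted with Trizol and sequenced by BGI protocols, per the labels. Build hg19 and the tools BWA, Bowtie2 and RSEM appear in the submitters' processing notes, without roles or versions. The log2 fold changes and the Q values were computed by the authors and deposited for genes and transcripts, with their normalization and test not given in the sources used here. Every deposited Q value was under 0.05 (largest 0.0495 for genes). The other deposited tables hold names only. Planned fits on values per library were therefore not run.

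Members and lists were chosen with earlier results of these data known. Rows of the gene comparison were matched by NCBI gene ID to RefSeq (GRCh38.p14), which found 1 gene more than symbols alone. Transcripts were matched by symbol, so those of a gene under an older name could be missed. The symbols of 3 genes of the wider list were not listed. Named are all members, the genes of the wider list with a row, HDGFL2 and markers. The background is the 19965 listed mRNA genes with an NCBI gene ID, and 4272 gene models without one were left out. For transcripts it is the 19887 mRNA gene symbols listed. GC content and length are medians over a gene's protein-coding transcripts in GENCODE 29, or over its other transcripts where it has none. A GC value was found for 676 of the 684 genes. Shared sequence was measured in 31-base words with a limit of 50%. No test was run on the lists: counts and medians are described. The counting steps were tested on simulated data (Python 3.11.15).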

Additional observations from a re-analysis of the deposited data

How the results depend on the processing

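Each alternative for the members in the gene table kept some or all of the same 11 higher rows, so it could not change their direction. The number left fell from 11 to 5 with a Q value under 0.01 and to 2 at 1 or more on the log2 scale. It was 9 without genes sharing sequence and 11 by listed symbol alone. In the wider list 24 genes became 6, all higher, with a Q value under 0.01, and 0 at 1 or more on the log2 scale in either direction. Its 7 transcripts became 2 with an absolute log2 fold change under 6, and also 2, 1 of them higher, with a Q value under 0.01. The share of members with an E-box was 18.5% in the 250 bases before the start alone (9.73% of protein-coding genes). Of the 14 members with a match, 8 have it only after the start and RRP9 across it, and these drop out. The last setting, and for the wider list the matching by symbol, the removal of genes sharing sequence or of ribosomal proteins and the stricter Q value for transcripts, were chosen after seeing the data. The narrower E-box windows around the start were not among the planned settings either. No paired analysis was possible because the values used are the authors' fold changes over both groups, with no value per library, and for the same reason no replicate could be left out. Depth is unknown.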
